A study of Physcomitrium patens with 20 samples.

Results

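The question addressed here was whether losing the DNA methyltransferases CMT and DNMT3b together changes the transcriptome of moss protonema by more or by less than the sum of what each loss does alone. Protonema is the filamentous juvenile tissue of Physcomitrium patens. The comparison used 12 of the 20 libraries of the series, 3 each of wild type (wt), the single mutants cmt and dnmt3b, and the double mutant cmt/dnmt3b, all of cultivar Grandsen (as the labels spell it) and all grown for 7 days on BCDAT medium before total RNA was taken and its polyA fraction sequenced. The members were chosen by genotype label alone, with no measured value. The labels do not say how many independent lines stand behind a genotype, or that the replicates were grown apart. The spread that the p-values rest on may therefore be technical. Replicates 1 and 2 of wt and of cmt were labelled batch 1. Replicate 3 of each, and all libraries of dnmt3b and cmt/dnmt3b, were labelled batch 2.

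In plants, methylation outside CG sites is kept by enzymes with separate tasks. CMT, a chromomethylase, maintains CHG methylation in a loop with a histone mark of silent chromatin, and moss DNMT3b, a relative of the animal de novo enzymes, is the main source of CHH methylation in heterochromatin. Both act mostly on transposable elements (TEs), mobile repeats that plants keep silent.

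The interaction of a gene or TE was the log2 level in cmt/dnmt3b, minus that in cmt, minus that in dnmt3b, plus that in wt. It is the difference between the effect of CMT loss where DNMT3b is also lost and its effect where DNMT3b is present. A positive value means that the double mutant lay above the level given by adding the log2 changes of the single mutants, a negative value that it lay below. The 12 libraries held between 14236575 and 21811993 counts, and a level of 0 in 1 library allows up to 3 counts, 0.130 to 0.212 CPM (counts scaled to a library size of 1e+06). The files do not pair gene or TE identifiers with names and 0 of the tested gene identifiers were found in the reference gene table, so the genes of CMT and DNMT3b themselves were not identified and the genotype labels were not checked on them.

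TE transcripts took a larger share of the RNA in the double mutant than either way of adding the single mutants gives. The TE share of counts was 0.0698%, 0.0561% and 0.109% in wt replicates 1 to 3, 0.311%, 0.327% and 0.587% in the cmt replicates, 0.279%, 0.208% and 0.219% in those of dnmt3b, and 3.07%, 2.94% and 3.60% in the double mutant. No cmt/dnmt3b library overlapped a library of the other genotypes, and every cmt library lay above every dnmt3b library. The 95% exact binomial intervals of single libraries, such as 3.06 to 3.08% in cmt/dnmt3b replicate 1, were far narrower than the spread between replicates, and they cover counting error only. CMT loss multiplied the mean share by 5.21 where DNMT3b was present and by 13.6 where it was lost. DNMT3b loss multiplied it by 3.0 where CMT was present and by 7.84 where it was lost, and by 2.15 and 5.46 against the single batch 2 library of wt and of cmt. Adding the single mutants' gains in percentage points gives 0.566%, and multiplying their ratios gives 1.23%, against the measured 3.20% ± 0.351 (SD, n = 3). Of the double mutant's share, 82.4% lay above the sum of percentage points.

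The interaction of the log2 TE share was 1.40 ± 0.44 (SE from the spread within the 4 genotypes), a factor of 2.61 for the ratio of mean shares. A two-sided permutation test over all 369600 assignments of the residuals of the additive model to the genotypes gave p = 0.00649 (adjusted p = 0.0130 over 2 such permutation tests). On the linear scale the excess was 2.64 percentage points (p = 0.00216 by the same permutation test). Within batch 2, where wt and cmt have 1 library each, the interaction was 1.35.

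The number of different TEs with transcripts was also highest in the double mutant, with no interaction past the threshold. With every library thinned to the depth of the smallest, 1241, 1590 and 3216 TEs had at least 1 count in wt replicates 1 to 3, 3702, 4635 and 7874 in the cmt libraries, 5978, 5072 and 5041 in those of dnmt3b and 14564, 14371 and 14498 in the double mutant. Without thinning the ranges were 1324 to 3216, 4059 to 8706, 5309 to 6399 and 14471 to 15658. CMT loss multiplied the mean thinned number by 2.68 with DNMT3b present and by 2.7 with DNMT3b lost, and DNMT3b loss multiplied it by 2.66 and 2.68. Against the single batch 2 libraries of wt and cmt, which had the most TEs of their genotypes, the ratios for DNMT3b loss were 1.67 and 1.84, and that for CMT loss with DNMT3b present was 2.45. The product of the ratios gives 14379 TEs, and 14478 were measured. The interaction of the log2 number was -0.03 ± 0.53 (SE; permutation p = 0.944, adjusted p = 0.944 over 2 tests), and leaving out 1 library moved it between -0.43 and 0.28. With this SE the data do not show that the number of TEs followed the product, since an interaction of more than its own SE could have been missed.

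Each detected TE, at equal depth, had 5.95 ± 1.78 counts in wt, 10.9 ± 0.983 counts in cmt, 6.22 ± 0.391 counts in dnmt3b and 31.5 ± 3.39 counts in the double mutant (SD, n = 3 each). The product of the single mutants' ratios gives 11.4. The ratio of the measured mean to this product was 2.77 for counts per TE and 1.01 for the number of TEs, and 2.31 and 1.10 with wt and cmt of batch 2 alone. Neither the counts per TE nor the difference between these ratios was tested. Replicates 3 of wt and cmt, the batch 2 libraries, had the highest share and number of their genotypes, and within batch 2 the interactions were 1.35 for the share and 0.15 for the number.

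**Figure D1:**
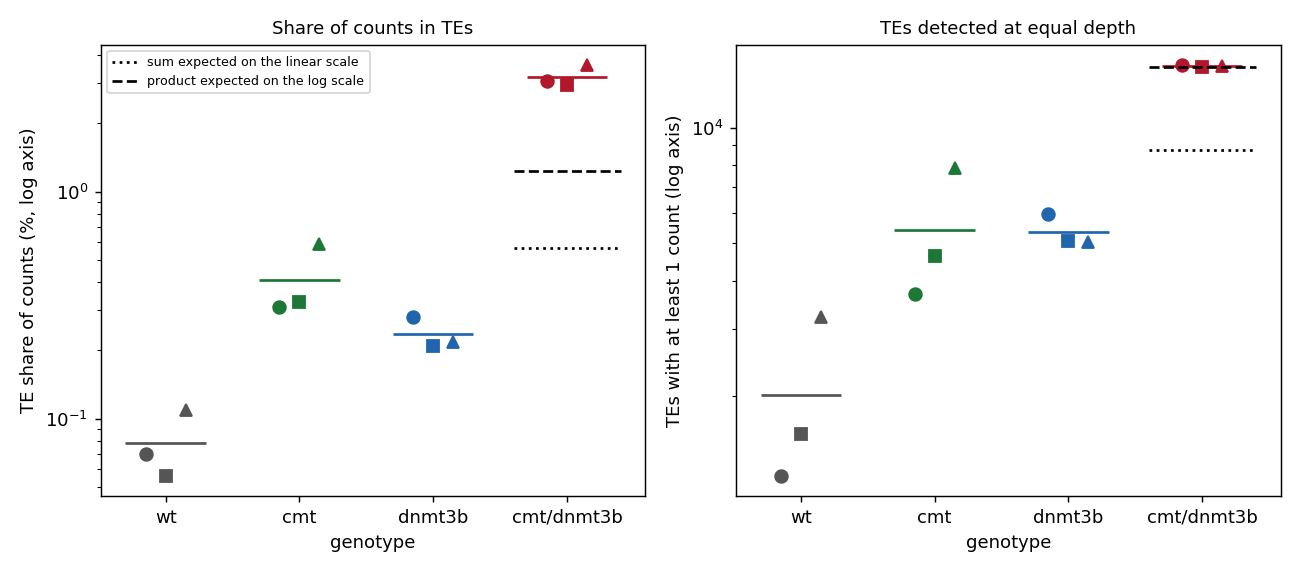
Share of counts in TEs (left, percent) and number of TEs with at least 1 count after thinning to equal depth (right), both on log axes, for each library of the 4 genotypes; circles, squares and triangles are replicates 1, 2 and 3 and coloured lines are means. For cmt/dnmt3b the dotted line is the sum and the dashed line the product expected from the single mutants: the measured share of 3.20% lies above both (0.566% and 1.23%), and the measured number of 14478 lies close to the product of 14379.

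Few single TEs passed the interaction test, and their number depended on how it was run. By edgeR's quasi-likelihood test, 125 of 6602 TEs tested (1.89%) had a positive interaction and 10 (0.151%) a negative one, at an adjusted p under 0.05, together 2.04%. With TEs adjusted apart from genes 35 positive and 0 negative TEs were left by edgeR (519 positive and 187 negative at an unadjusted p under 0.05). DESeq2, with genes and TEs adjusted together, gave 727 and 50. The log2 interaction is not set by the counts where a genotype has 0 counts. In wt, 4004 of the tested TEs had 0 counts in the 3 libraries, and for them the fitted value depends on the small count that edgeR adds. All 125 TEs called positive, and 9 of the 10 called negative, were among the other 2598. A count of 0 in a single mutant sets the same limit, and of the 125 positive calls 21 had 0 counts in cmt and 19 in dnmt3b. A TE can pass the low-count filter through its level in the double mutant and nowhere else, so a high double mutant is partly fixed by the choice of TEs tested. In the 368 TEs with 10 or more counts in wt the median log2 interaction was -0.14, 46.5% had a value above 0, and 26 were called positive and 5 negative.

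Of the 125 TEs with a positive interaction, 81 were raised less than 2-fold by either single loss in the fit, 20 were raised at least 2-fold by CMT loss alone, 23 by DNMT3b loss alone and 1 by both. In 89 of the 125 (71.2%) the double mutant rose although the fitted changes of the single mutants summed to a fall. CMT loss lowered 54 of the 125 and DNMT3b loss 52 at least 2-fold in the fit, and 21 had 0 counts in cmt and 19 in dnmt3b. These are mostly falls from levels within what a count of 0 allows. Over all 6602 TEs the numbers raised at least 2-fold by neither, by CMT loss alone, by DNMT3b loss alone and by both were 1284, 1768, 864 and 2686. A rise against a summed fall was found in 515 of the 6602 (7.8%). CMT loss lowered 250 and DNMT3b loss 682 of the 6602 at least 2-fold, and 1400 had 0 counts in cmt and 1793 in dnmt3b. The 6602 include 4004 TEs with 0 counts in wt, where a fall from wt cannot be measured and which gave 0 of the positive calls. The rises and falls were not counted over the TEs with counts in wt alone. All the positive calls lay among the 2598 TEs with counts in wt, of which 150 had 0 counts in cmt and 128 in dnmt3b. Against that base, counts of 0 in the single mutants were more frequent among the calls. The TEs called were mostly near silence in 3 of the genotypes. Their median levels were 0.0933 CPM in wt, 0.0768 CPM with CMT lost, 0.142 CPM with DNMT3b lost and 6.92 CPM with both lost. A wt mean under 1 CPM was found in 109 of the 125 and in 6497 of all 6602 TEs tested. Low wt levels were therefore not particular to the calls, and many calls rest on a few wt counts. In 116 of the 125 every cmt/dnmt3b library lay above every library of the other 3 genotypes. The share was 82.7% of all TEs tested and 67.7% of those with counts in wt.

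TE 920417 illustrates a TE that was transcribed in every genotype and rose steeply in the double mutant. Its levels were 5.03, 4.31 and 2.24 CPM in wt replicates 1 to 3, 8.38, 7.72 and 6.91 in the cmt libraries, 5.47, 4.11 and 5.26 in those of dnmt3b and 158, 214 and 272 in the double mutant. The cmt libraries lay above wt, those of dnmt3b overlapped wt, and the double mutant lay far above all of them. The interaction of TE 920417 was 4.42 ± 0.38 on the log2 scale (edgeR adjusted p = 1.71e-05).

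TE 936921 had a positive interaction of another form. It stood at 26.3, 28.9 and 15.3 CPM in wt, 0.892, 1.15 and 0.605 in the cmt libraries, 40.3, 23.9 and 24.9 in those of dnmt3b and 21.9, 24.2 and 22.1 in the double mutant. The cmt libraries alone were low, and those of the double mutant lay within the range of wt. Its interaction was 4.33 ± 0.39 (edgeR adjusted p = 1.71e-05), with a fitted change from wt of -4.72 for CMT loss, 0.69 for DNMT3b loss and 0.31 for both.

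Of the 10 TEs with a negative interaction, 9 were raised at least 2-fold by each single loss in the fit, against 2686 of all 6602 TEs tested. TE 812538 stood at 0, 0 and 0.420 CPM in wt, 0.297, 0.576 and 1.99 in the cmt libraries, 2.33, 1.20 and 1.81 in those of dnmt3b and 0.763, 0.939 and 0.90 in the double mutant. All its dnmt3b libraries lay above those of the double mutant, which overlapped those of cmt. The interaction was -4.25 ± 0.98 (edgeR adjusted p = 0.0182), and it was not past the threshold within batch 2, with no batch term, or with genes and TEs adjusted separately. In 2 of the 10 every double mutant library lay below all others, against 0.0909% of all TEs tested. TE 818385 was one of them, at 1.39, 1.44 and 1.20 CPM, against 4.09, 5.93 and 2.38 in wt, 3.8, 5.01 and 3.5 in cmt and 6.51, 5.26 and 4.68 in dnmt3b. Its interaction was -2.06 ± 0.48 (edgeR adjusted p = 0.0192), and the call was lost without cmt/dnmt3b replicate 1 or 3 and with genes and TEs adjusted separately.

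The TE counts moved with single libraries. The 125 positive calls became 79, 65, 78, 61, 59, 79, 55 and 83 without wt replicate 2, wt replicate 3, cmt replicate 1, cmt replicate 3 and the cmt/dnmt3b replicates 1, 2 and 3 and dnmt3b replicate 3 in turn, and the 10 negative calls became 100 without cmt replicate 3, and 1 to 6 without any other library.

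**Figure D2:**
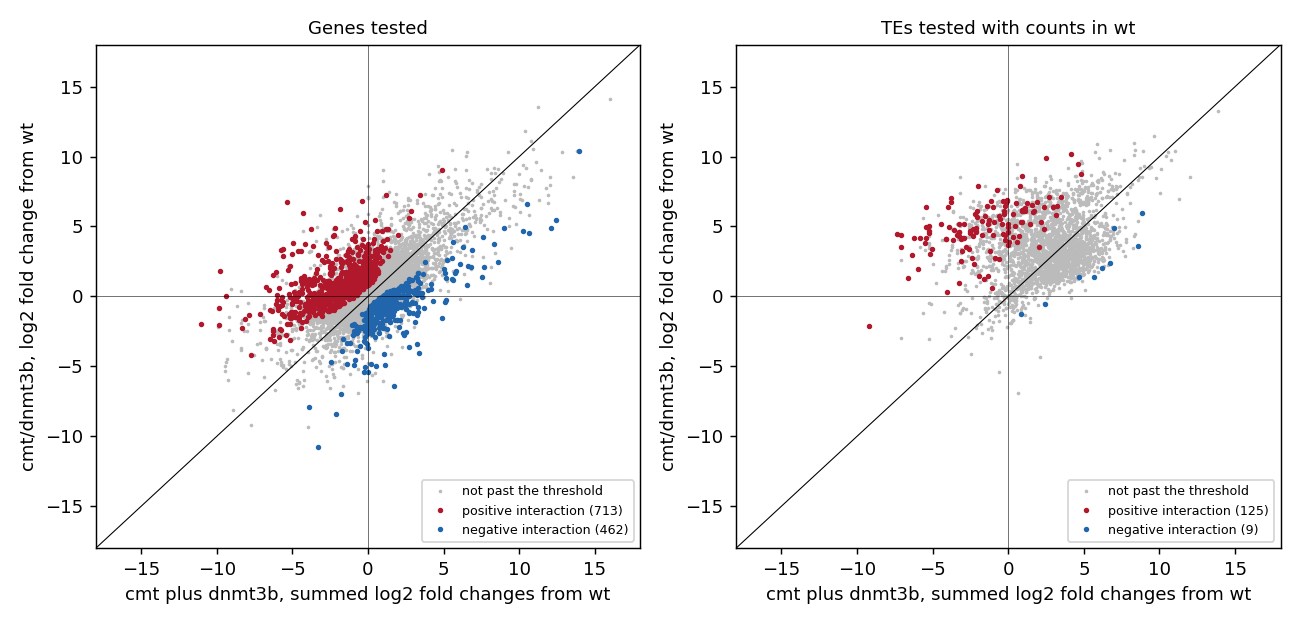
Fitted log2 fold change from wt of cmt/dnmt3b (vertical axis) against the sum of those of cmt and dnmt3b (horizontal axis), for the 20149 genes tested and for the tested TEs with counts in wt; each point is a gene or TE, and the diagonal marks equality. Red points (positive interaction, 713 genes and 125 TEs) lie above the diagonal, most of them left of the vertical zero line, and blue points (negative interaction, 462 genes and 9 TEs) below it.

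Genes departed from the sum in both directions. Of 20149 genes tested, 713 (3.54%) had a positive interaction and 462 (2.29%) a negative one (edgeR's quasi-likelihood test, adjusted p under 0.05), together 5.83%. The median interaction over all genes tested was -0.01. The median positive call was 2.40 and the median negative call -1.76 on the log2 scale, and 435 and 192 of them, respectively, were at least 2 in size.

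Among the 713 positive genes, 84 rose in the double mutant beyond a summed rise of the single mutants. Another 450 rose in the double mutant although the single mutants' changes summed to a fall, and 179 fell by less than the summed fall. Among the 462 negative genes, 48 fell beyond a summed fall, 303 fell although the changes summed to a rise, and 111 rose by less than the summed rise. These are signs of the fitted log2 changes from wt, given as a description with no test. Opposite signs of the double mutant and the sum made up 63.1% of the positive and 65.6% of the negative calls, against 28.5% and 31.4% of all tested genes whose interaction was above or below 0. Many double mutant changes of the called genes were under 2-fold, though less often than over all genes. The double mutant was within 2-fold of wt in 355 of the 713 positive genes, more than 2-fold up in 303 and down in 55. It was within 2-fold of wt in 275 of the 462 negative genes, more than 2-fold down in 149 and up in 38. Over all 20149 genes tested it was within 2-fold in 15713, up in 2884 and down in 1552.

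In the positive genes dnmt3b was most often the lowest of the 4 genotypes and the double mutant most often the highest. In the negative genes the order was the reverse. Lowest and highest were counted separately, and how often both held in the same gene was not computed. The single mutant dnmt3b had the lowest mean level of the 4 genotypes in 552 of the 713 positive genes (77.4%). Its share was 51.4% of all tested genes with an interaction above 0, while cmt was lowest in 137 (19.2%), against 24.2%. The double mutant had the highest mean in 450 of the 713 (63.1%), against 50.4%. DNMT3b loss alone lowered 368 of the 713 by at least 2-fold in the fit, against 1739 of all 20149 genes tested. CMT loss alone lowered 178 of the 713, against 986 of all genes tested. In the 462 negative genes, dnmt3b had the highest mean in 308 (66.7%), against 49.8% of tested genes with an interaction below 0, and cmt in 125 (27.1%), against 24.9%. The double mutant had the lowest mean in 340 of the 462 (73.6%), against 48.0%. These means are CPM with no adjustment for batch, and all libraries of dnmt3b and cmt/dnmt3b were of batch 2. The calls were made with the same 12 libraries, so these counts describe the form of the interaction and do not support it.

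**Figure D3:**
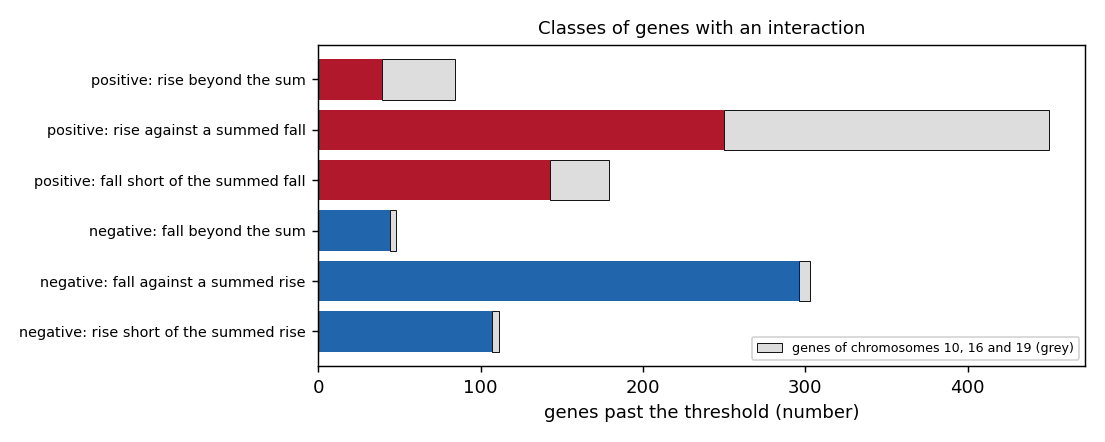
Number of genes past the threshold in each class of interaction (horizontal axis), by the signs of the fitted change of the double mutant and of the summed change of the single mutants; the grey parts are genes of chromosomes 10, 16 and 19. The largest classes are those with opposite signs, with 450 positive and 303 negative genes, and the grey part is 200 of the 450.

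Gene Pp3c4_23930, the positive gene with the smallest p-value, was lowest in dnmt3b, and its fitted fall was smaller in the double mutant than in either single mutant. It stood at 129, 207 and 45.1 CPM in wt replicates 1 to 3, 34.6, 51.3 and 8.55 in the cmt libraries, 1.74, 3.36 and 3.33 in those of dnmt3b and 29.3, 13.8 and 34.2 in the double mutant. All dnmt3b libraries lay below every library of the other genotypes, the cmt libraries overlapped wt, and those of the double mutant lay within the range of cmt. The mean of the double mutant, 25.8 CPM, was not above that of cmt, 31.5 CPM, and only the batch-adjusted fit places it higher. The interaction was 5.26 ± 0.59 (edgeR adjusted p = 0.000261), with fitted changes from wt of -2.07 for CMT loss, -4.25 for DNMT3b loss and -1.06 for both.

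Gene Pp3c16_19740 was near silence except in the double mutant. Its levels were 0.134, 0.565 and 0.140 CPM in wt, 0.178, 0.230 and 0.173 in the cmt libraries, 0.116, 0 and 0.117 in those of dnmt3b and 16.1, 13.1 and 19.4 in the double mutant. The interaction was 8.10 ± 0.92 (edgeR adjusted p = 0.00029), and within batch 2 it did not pass the threshold (adjusted p = 0.0650; the range over all 22 alternatives that gave a value was 6.91e-14 to 0.0650). Gene Pp3c16_16200, of the class that rose beyond the sum, stood at 0.268, 0.282 and 0 CPM in wt, 0.178, 0.230 and 0 in the cmt libraries, 0.0581, 0.451 and 0.117 in those of dnmt3b and 9.06, 11.6 and 12.7 in the double mutant (interaction 6.10 ± 1.21, edgeR adjusted p = 0.00844). In both genes the double mutant lay above every other library. The other genotypes overlapped in Pp3c16_16200, while in Pp3c16_19740 all dnmt3b libraries lay below those of wt and cmt, at levels within what a count of 0 allows. The call for Pp3c16_16200 was lost without wt replicate 2 and within batch 2.

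Gene Pp3c3_25110, the negative gene with the smallest p-value, rose with DNMT3b loss alone and fell where CMT was lost as well. It stood at 29.4, 23.8 and 19.4 CPM in wt, 20.2, 28.4 and 10.7 in the cmt libraries, 110, 94.4 and 102 in those of dnmt3b and 5.61, 4.57 and 2.85 in the double mutant. The dnmt3b libraries lay above and the double mutant libraries below every other library, while wt and cmt overlapped. The interaction was -4.22 ± 0.41 (edgeR adjusted p = 4.47e-05).

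Gene Pp3c26_8580 fell beyond the sum. Its levels were 16.6, 21.6 and 14.8 CPM in wt, 8.92, 7.20 and 4.10 in the cmt libraries, 20.2, 25.4 and 20.5 in those of dnmt3b and 0.942, 0.251 and 0.650 in the double mutant (interaction -3.69 ± 0.45, edgeR adjusted p = 0.000483). Cmt was below wt, dnmt3b overlapped wt, and the double mutant lay below all. Gene Pp3c15_22920 rose with each single loss and far less with both, from 2.35, 0.918 and 2.59 CPM in wt to 22.0, 24.8 and 7.00 in cmt and 37.1, 10.4 and 11.7 in dnmt3b, but 2.74, 3.69 and 3.25 in cmt/dnmt3b. Both single mutants lay above every library of wt and of the double mutant. Its interaction was -5.77 ± 0.81 (edgeR adjusted p = 0.0010).

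**Figure D4:**
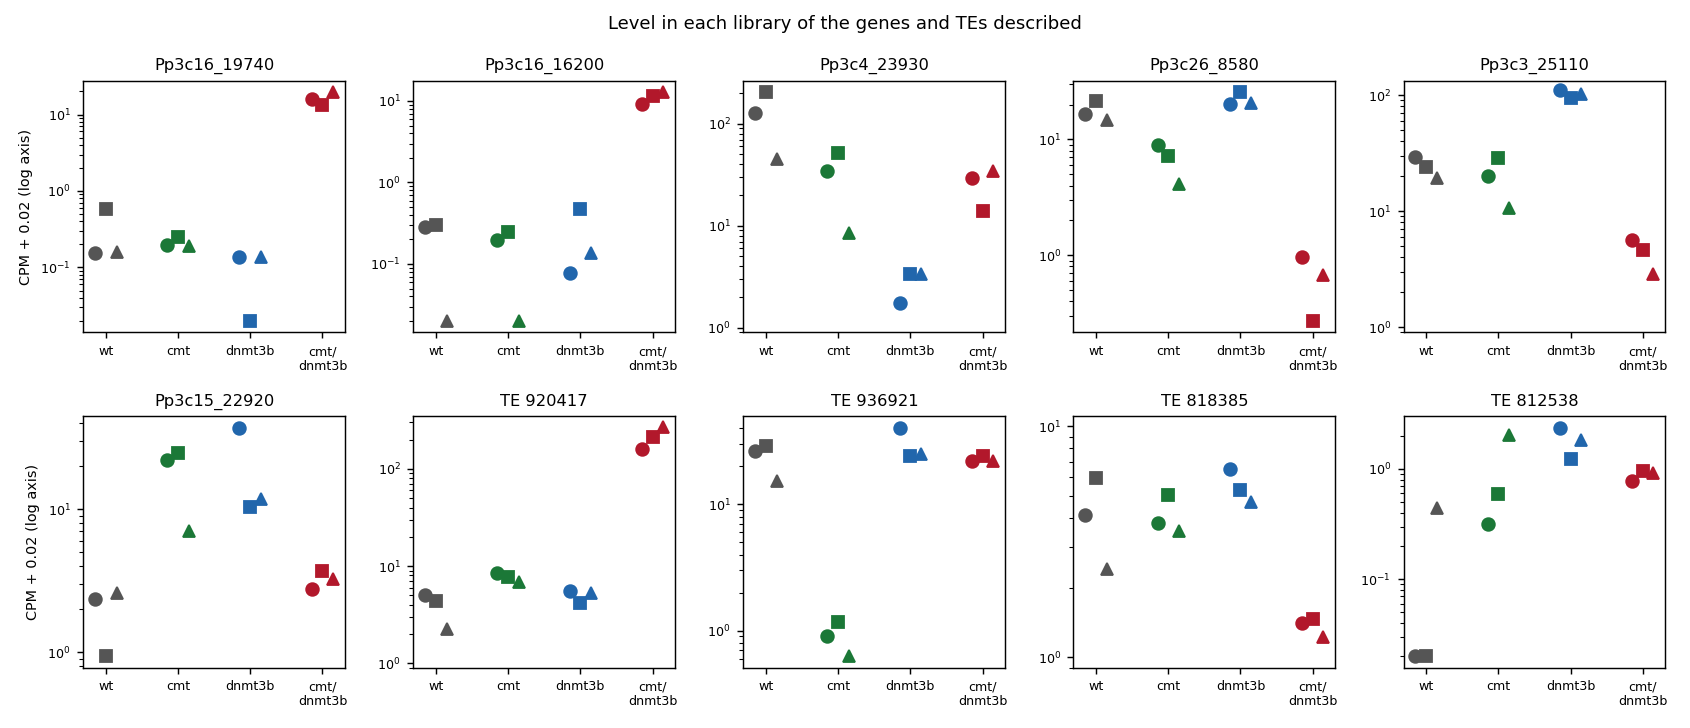
Level of the 6 genes and 4 TEs described, in CPM plus a small offset of 0.02 on log axes, in each of the 12 libraries; circles, squares and triangles are replicates 1, 2 and 3. In TE 920417 the double mutant stands at 158 to 272 CPM against at most 8.38 in the other genotypes, and in Pp3c3_25110 dnmt3b stands highest (94.4 to 110 CPM) and the double mutant lowest (2.85 to 5.61 CPM).

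In 327 of the 713 positive genes every library of cmt/dnmt3b lay above every library of the other 3 genotypes, against 10.4% of all genes tested. In 223 of the 462 negative genes every library of the double mutant lay below all others, against 7.01% of all genes tested. A wt mean under 0.5 CPM was found in 56 of the positive and 37 of the negative genes, and in 105 of the 125 positive TEs. Under 1 CPM were 98 of the positive and 49 of the negative genes, against 2787 of all 20149 genes tested. The same held for 109 of the positive TEs, against 6497 of all 6602 TEs tested.

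Whole chromosomes carried part of the positive gene calls. Chromosome numbers were read from the gene identifiers, a convention not checked against an annotation. The median interaction was 0.85 over 824 genes of chromosome 16, 0.57 over 773 genes of chromosome 10 and 0.28 over 604 genes of chromosome 19, and it lay between -0.12 and 0.09 on each of the other 24 chromosomes. On chromosomes 16 and 10 the medians of the single mutants against wt lay between 0.01 and 0.04, and those of the double mutant were 0.88 and 0.63. On chromosome 19 all 3 mutants lay below wt, with medians of -0.35 for cmt, -0.50 for dnmt3b and -0.62 for the double mutant. Of the genes of chromosome 16, 88.2% had an interaction above 0 and 20.5% were called positive, against 10.6% on chromosome 10, 4.97% on chromosome 19 and 2.41% of genes elsewhere. These 3 chromosomes held 281 of the 713 positive calls (39.4%) and 10.9% of the genes tested. Genes elsewhere gave 432 positive and 447 negative calls (2.49% negative). Both printed genes of near-silent level, Pp3c16_19740 and Pp3c16_16200, bear the number of chromosome 16. Their interactions were 8.10 and 6.10, but both were named by p-value or size, so values above its median were fixed by the choice. A link to the shift of the whole chromosome was not tested. In the 432 positive genes elsewhere dnmt3b was again lowest in 342 (79.2%).

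**Figure D5:**
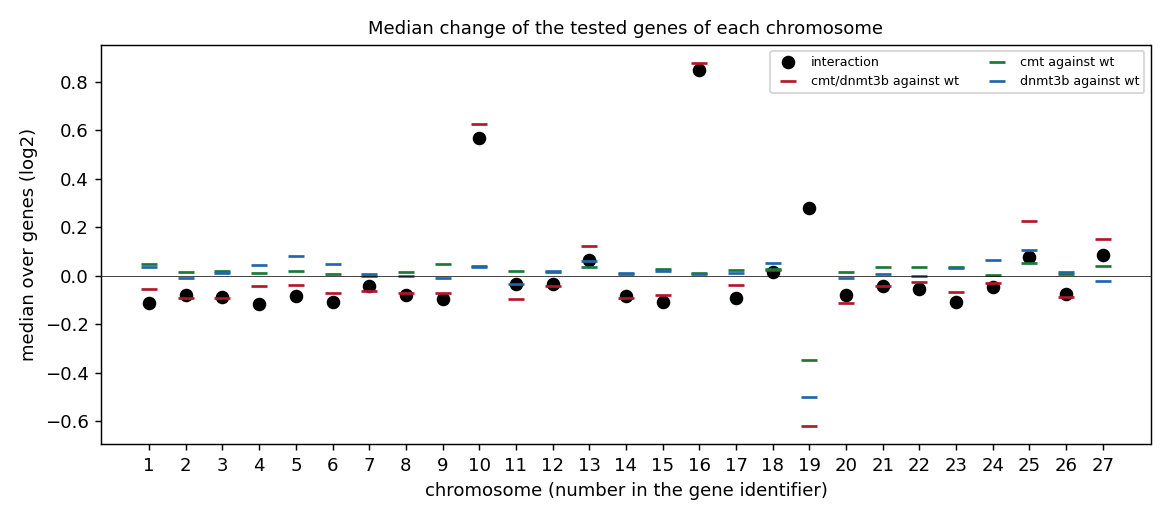
Median over the tested genes of each chromosome (horizontal axis) of the log2 interaction (black points) and of the fitted log2 fold changes of the 3 mutants from wt (coloured dashes). Chromosomes 16 and 10 stand out at 0.85 and 0.57 with the double mutant raised alone, and chromosome 19 at 0.28 with all 3 mutants below wt.

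The balance of the gene calls depended on the scaling. With normalisation factors from genes and TEs together the median gene had an interaction of -0.24, and 495 genes were positive and 898 negative, 35.5% positive against 60.7% with factors from genes alone. Relative to the median gene, positive and negative calls are therefore those given above. The counts also rested on single libraries: the positive calls were 320, 354, 374, 350 and 469 without wt replicate 2, cmt replicate 1, cmt/dnmt3b replicate 1, cmt/dnmt3b replicate 3 and dnmt3b replicate 3, and the negative calls 213, 224, 284, 179, 175 and 296 without wt replicate 2, cmt replicates 1 and 2, cmt/dnmt3b replicates 1 and 3 and dnmt3b replicate 1. Within batch 2, with 1 library each of wt and cmt, there were 381 positive and 179 negative genes and 74 positive and 5 negative TEs.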

How the data were processed

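The authors deposited raw counts of genes (identifiers starting Pp3) and TEs (numeric identifiers) for 20 libraries of polyadenylated RNA. STAR 2.7.0f, Trim Galore 0.6.0 and cutadapt are named, without roles, per the submitters' processing notes. Not given in the sources used here are the counter, the strand setting, the handling of multi-mapping reads, the build and the annotation, so levels of near-identical TE copies, close paralogs and overlapping or antisense genes are uncertain.

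Counts of all 20 libraries (7 genotypes) were fitted with edgeR 4.0.16 (R 4.3.3) with genotype and batch as terms, on the 20149 genes and 6602 TEs that passed edgeR's filter by genotype (minimum count 10, minimum total 15). Normalisation used trimmed means of M-values from gene rows alone. The quasi-likelihood test of the interaction was adjusted by Benjamini-Hochberg over all 26751 features (threshold 0.05), and changes from wt are fitted, batch-adjusted log2 values. Levels are CPM computed from the counts with these factors. Values per library (TE share, TEs detected) were tested by permuting residuals of the additive model. Replicates differed by 7.39 to 124 chi-square per degree of freedom, so none was taken for a repeat. The scripts were tested on simulated data. Alternatives included other scalings and filters, DESeq2 1.42.0, other batch and block terms, and leaving out each of the 12 libraries.

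Genes and TEs were named by rank of p-value in each direction and by size within each class. Only the first 2 by p, and for genes the first of each class not yet shown, are printed, since identifiers have no names here. TE 851079, named by size within its class, was picked outside this order and is printed under the other observations. Lists by gene description could not be made for the same reason. The members and lists were chosen with earlier results of these data known.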

Additional observations from a re-analysis of the deposited data

Results flagged for a closer look

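The effect of CMT loss differed with the state of DNMT3b in the results below, by a test of the difference itself, the interaction. Values are the log2 effect of CMT loss with DNMT3b lost minus that with DNMT3b present. The TE share gave 1.40. The positive features gave 5.26 in Pp3c4_23930, 8.10 in Pp3c16_19740, 6.10 in Pp3c16_16200, 4.42 in TE 920417 and 4.33 in TE 936921. The negative ones gave -4.22 in Pp3c3_25110, -3.69 in Pp3c26_8580, -5.77 in Pp3c15_22920, -4.25 in TE 812538 and -2.06 in TE 818385.

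Some of these features also stood above wt in libraries that the interaction does not use, the mutants met and met/dnmt3b (loss of MET, the CG maintenance enzyme). In met/dnmt3b every library lay above the highest wt library for Pp3c16_19740 (mean 2.66 CPM), Pp3c3_25110 (38.8 CPM), Pp3c16_16200 (1.04 CPM), Pp3c15_22920 (3.83 CPM), TE 920417 (14.4 CPM) and TE 812538 (0.744 CPM), n = 3 each. In met both libraries did so for Pp3c26_8580 (36.9 CPM) and Pp3c15_22920 (11.2 CPM). Both met libraries lay below every wt library for Pp3c4_23930 (25.9 CPM) and for Pp3c16_19740 (0.0546 CPM, within what a count of 0 allows). In the other cases met and met/dnmt3b overlapped wt. The share of all genes and TEs that separate in this way was not computed. All libraries of met and met/dnmt3b were of batch 1, while those of wt were of both batches. These levels are a description with no test.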

How the results depend on the processing

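The TE share interaction stayed positive and past the threshold at 1.13 to 1.69 over the 12 libraries left out in turn, at 1.77 without the 10 TEs with the most counts and 2.64 percentage points on the linear scale; within batch 2 it was 1.35, with 1 library each of wt and cmt and so no sign of stability. The interaction of the number of TEs ran from -0.43 to 0.28 over the libraries left out and was not past the threshold in any alternative. In the order positive genes, negative genes, positive TEs, negative TEs, where the main counts were 713, 462, 125 and 10, there were 1251, 897, 224 and 76 with no low-count filter, 475, 300, 50 and 3 with no batch term, 381, 179, 74 and 5 within batch 2, 1228, 1196, 175 and 65 in the 12 libraries of the 4 genotypes alone, 1323, 981, 727 and 50 by DESeq2, and 495, 898, 118 and 22 with factors from genes and TEs together. Adjusting genes and TEs separately left 35 positive and 0 negative TEs by edgeR (519 positive and 187 negative at an unadjusted p under 0.05). Leaving out chromosomes 10, 16 and 19 left 386 positive and 379 negative genes. Leaving out 1 library gave 320 to 840 positive and 175 to 672 negative genes, and 55 to 113 positive and 1 to 100 negative TEs. RLE factors, a filter on the mean level and a minimum size of 1 kept each count within 1.5 times. The causes were not tested. With the replicate number as a block the counts were 530, 303, 71 and 4; same-numbered libraries correlated in their deviations at 0.287, 0.265 and 0.421 between cmt and wt, but between -0.364 and 0.182 in the pairs with dnmt3b or cmt/dnmt3b, and own numbers correlated best in 12 of 36 cases, so over the 4 genotypes they share only a number. Of 753 refits of the 33 named features, 637 stayed past the threshold and 0 changed sign. These features were chosen by p-value or size in the main fit of the same libraries, so a kept sign was largely fixed by the choice.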

Other observations

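TE 851079, which the rule named by size within its class, was near silence in wt (0.067, 0.353 and 0 CPM), cmt (0.178, 0.115 and 0.389 CPM) and dnmt3b (0.407, 0.10 and 0.234 CPM) and stood at 80.9, 79.8 and 82.8 CPM in cmt/dnmt3b. Its interaction was 7.70 ± 1.19 on the log2 scale (edgeR adjusted p = 0.00174). The call was lost within batch 2 (2.50, adjusted p = 1.0) and without wt replicate 2 (5.70, adjusted p = 0.199), and over all 23 alternatives the adjusted p ran from 3.94e-14 to 1.0. In the genotypes outside the interaction it stood at 22.1, 15.6 and 38.2 CPM in drm12, 27.2 and 36.0 CPM in met and 52.4, 44.1 and 37.9 CPM in met/dnmt3b, all above every library of wt, cmt and dnmt3b.

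Pp3c4_23930, lowest in dnmt3b (1.74 to 3.36 CPM) among the 4 genotypes, overlapped wt in met/dnmt3b (61.2 to 110 CPM), where DNMT3b is also lost, and lay below wt in met (18.1 and 33.6 CPM). In Pp3c3_25110, the level in met/dnmt3b (31.8 to 45.5 CPM) lay between those of wt and dnmt3b.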
